A study of Balaenoptera physalus with 6 samples.

Results

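Zinc finger protein genes were taken as genes whose symbol begins with ZNF, ZBTB, ZSCAN or ZFP and a digit, and were followed through the CpG sites that the authors listed as differently methylated in fin whale skin. The list named 98 such genes, of 6197 genes in all, at 238 of its 32682 CpG sites. The skin came from Mediterranean fin whales (Balaenoptera physalus), with 3 samples from the group with a high load of organochlorine contaminants (OC) and 3 from the group with a low load, per the labels, and no treatment or age given. Reduced representation bisulfite sequencing was used, in which the enzyme MspI cuts DNA at CCGG and bisulfite converts unmethylated cytosines, so that the share of reads with an unconverted cytosine is the methylation level. Titles of all high OC samples carry the prefix BPT and those of all low OC samples BPL, so whatever the prefix marks cannot be told apart from contaminant load. The labels do not state that each sample is a different whale. Skin holds several cell types, and a different mix of cells cannot be told apart from different methylation within cells.

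Most of these genes encode proteins with repeated C2H2 zinc fingers, small folds that hold a zinc ion and read a few bases of DNA each. Many carry a further domain that recruits partners. The KRAB domain brings in TRIM28 and with it histone and DNA methylation, the BTB domain of the ZBTB group binds corepressors, and the SCAN domain of the ZSCAN group pairs such proteins with each other. In mammals many KRAB zinc finger genes lie in clusters of related copies and silence transposable elements. Values of genes with near-identical copies are therefore uncertain, since reads could be placed at the wrong copy. The sites had 5 to 70 reads per sample, with a median of 12.

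The authors had selected each listed site for a difference of at least 10 percentage points and an unadjusted p of at most 0.05 between these same 6 samples. A difference between the group means, large beside the spread within groups, is thus a condition for being listed. Small SDs at listed sites and in averages over them are partly set by this selection. The groups did not overlap at any of the 238 sites, and 99.5% of all 32682 listed sites were also without overlap. Levels below are descriptions of listed sites, with no test, and not levels of whole genes. On a stretch of 651 unselected CpG sites, which held 0 of the member sites, the authors called 2.00% in either direction. "Higher" and "lower" below give the listed direction in high OC relative to low OC skin.

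Zinc finger protein genes were listed in both directions, with 134 higher and 104 lower sites. That is 56.3% higher (exact 95% interval 49.7% to 62.7%), beside 52.9% of the 18544 listed sites with a named gene and 50.8% of all listed sites. By gene, 53 had more higher sites, 37 had more lower sites and 8 had equal numbers; of the other 6099 genes, 49.5% had more higher sites. The share was close to those backgrounds, and it was 50% when the authors' criteria were applied again without low OC replicate 2. The gene counts shrank by more than 1.5 times, with fewer sites left, to 35 higher and 21 lower without high OC replicate 1, 20 lower without high OC replicate 2, 35 higher without low OC replicate 2 and 23 lower without low OC replicate 3. The higher sites averaged 68.7%, 69.0% and 67.2% in the high OC samples, against 46.1%, 46.8% and 47.2% in the low OC samples. The lower sites averaged 52.7%, 51.6% and 52.4% in high OC, against 71.3%, 73.8% and 73.1% in low OC. The samples of a group lay close together in these averages, which the selection favours, so this is no check of the samples. The median absolute difference was 18.3 points, as it was over all listed sites with a named gene, and 29 sites (12.2%) were in the authors' strong class, beside 13.4% of all listed sites.

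**Figure D1:**
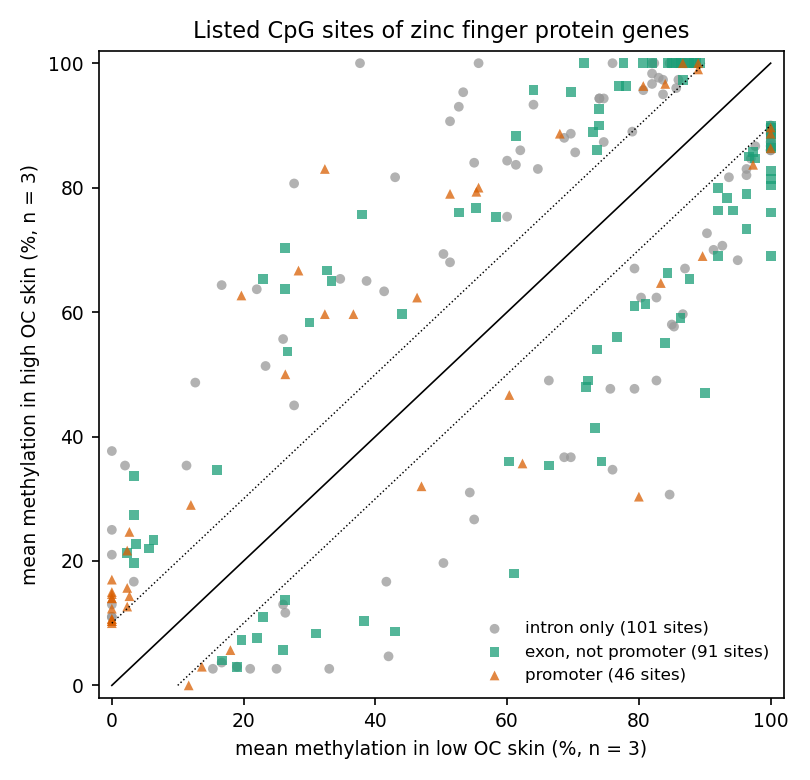
Each point is 1 of the 238 listed CpG sites of zinc finger protein genes, with the mean level in high OC skin (%, n = 3) on the vertical axis and in low OC skin (%, n = 3) on the horizontal axis; shape and colour give the location, the solid line marks equal levels and the dotted lines a difference of 10 points. The empty band is set by the authors' selection, and the left edge holds 11 promoter sites at 0% in every low OC sample.

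Most listed members were ZNF genes, and the other named groups of the family had too few sites to compare their split. The 78 ZNF genes had 103 higher and 88 lower sites. The 14 ZBTB genes had 20 higher and 12 lower sites, and 9 of these genes leaned higher and 4 lower. The 4 ZSCAN genes had 9 higher and 3 lower sites, 4 of the higher ones from ZSCAN12. The ZFP group held ZFP57, with 2 higher sites, and 1 other gene with 1 lower site, and 0 genes of the ZFP36 type, which bind RNA, were listed. RefSeq's gene list for fin whale held 94 of the 98 symbols, and 94 of its 355 zinc finger symbols (26.5%) had a listed CpG site, beside 4988 of 15714 other named protein-coding symbols (31.7%). Which genes had covered sites at all was not known, so these shares also depend on coverage.

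By location, exons held 109 of the sites (45.8%, exact 95% interval 39.3% to 52.4%), beside 30.9% of all listed sites with a named gene. Introns held 115 (48.3%), beside 66.2%, and promoters held 46 (19.3%, exact 95% interval 14.5% to 24.9%), beside 14.6%. Of the promoter sites, 32 also had an exon or intron annotation. Neighbouring sites are not independent and gene structure differs between families, so these differences in location were not tested. Exon sites were split 57 higher to 52 lower (52.3% higher, beside 56.4% of all listed exon sites). Intron sites were split 66 to 49 (57.4% higher, beside 50.5%).

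**Figure D2:**
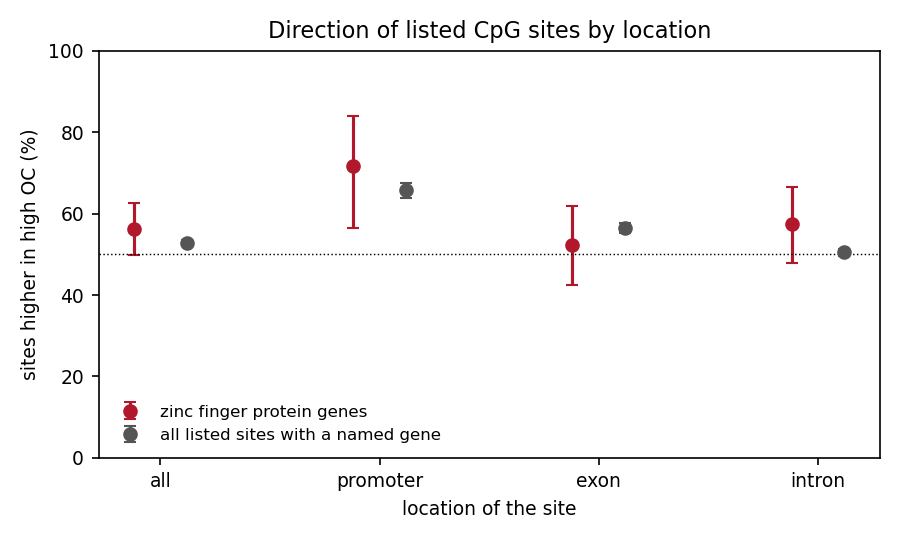
The share of listed CpG sites higher in high OC skin (%) is shown by location for zinc finger protein genes (red) and for all listed sites with a named gene (grey), with exact 95% binomial intervals. The red point is at 71.7% for promoters and at 52.3% for exons, and each red interval includes its grey point.

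In promoters the listed sites were mostly higher, as they were over all genes. Of the 46 promoter sites 33 were higher and 13 lower (71.7% higher, exact 95% interval 56.5% to 84.0%), beside 65.8% of the 2713 listed promoter sites of any gene. They belonged to 35 genes, 25 with only higher and 10 with only lower promoter sites; of 1785 other genes with such sites, 57.0% had only higher ones. Among the 19 promoter sites with a mean level of at most 20%, 16 were higher (84.2%, exact 95% interval 60.4% to 96.6%). Over all genes 64.0% of such sites were higher, a share within that interval. Averaged over all 46 sites, high OC skin stood at 46.9% ± 0.589 and low OC skin at 38.5% ± 0.395 (SD, n = 3 each).

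A share of these promoter sites was unmethylated in every low OC sample and had a few methylated reads in each high OC sample. This held at 11 of the 46 (23.9%, exact 95% interval 12.6% to 38.8%). Of the 2713 listed promoter sites of any gene, 15.0% had 0% in every low OC sample. The reverse, 0% in every high OC sample, held at 1 site, in ZNF212 (2.17%, exact 95% interval 0.055% to 11.5%), beside 9.29% over all genes. Both intervals include the share over all genes. The 11 sites lay in promoters of ZBTB18, ZNF131, ZNF217, ZNF250, ZNF396, ZNF512B, ZNF536, ZNF551, ZSCAN12 and ZSCAN2, with 6% to 25% in the high OC samples. Each of those levels rested on 1 to 4 methylated reads, with a median of 1. The low OC samples had a median of 12 reads at these sites, where a count of 0 allows a level of up to 25%, so at this depth single samples could not be told apart there.

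ZSCAN12 and ZNF658 had the most listed promoter sites, in opposite directions. ZSCAN12, a SCAN domain zinc finger gene, had 4 higher promoter sites within 55 bases, at 1087963 to 1088018 on scaffold NW_006726621_1 of the deposited tables. Over these the high OC samples had 20%, 18.5% and 18.3%, against 8%, 3% and 1.8% in the low OC samples, at 11 to 24 reads. The high OC samples were close together, at 18.9% ± 0.946, beside 4.25% ± 3.31 in the low OC samples (SD, n = 3 each). ZNF658, which in human cells binds promoters of zinc-responsive genes, had 3 lower promoter sites within 167 bases, at 32034425 to 32034592 on NW_006726353_1. The high OC samples had 42.7%, 35.7% and 52.3%, against 82.7%, 60.7% and 82.3% in the low OC samples, at 6 to 16 reads. The sites at 32034556 and 32034592 had equal read counts in every sample and may share reads, which was not tested. Low OC replicate 2 was below the other low OC samples. The groups averaged 43.6% ± 8.37 in high OC and 75.2% ± 12.6 in low OC (SD, n = 3 each). Since the groups overlapped at none of the member sites, they could not overlap in the averages of either gene.

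The 6 genes with 2 promoter sites each were described after their values were seen, and 5 had both sites higher. In ZNF174, ZNF496 and ZNF217 both sites had equal read counts in every sample, so the same reads may lie behind both. Whether they do was not tested. ZFP57, a KRAB protein that keeps DNA methylation at imprinted genes in mouse and human, had its sites 2 bases apart, at 1773129 and 1773131 on the scaffold that also holds ZSCAN12. Its high OC samples had 92%, 65% and 86%, against 28.5%, 56% and 41% in the low OC samples, so the samples were spread widely within both groups. ZNF174, a SCAN domain repressor, had 66.5%, 83% and 69.5% in high OC, against 30%, 45.5% and 50% in low OC. ZNF496, a protein with SCAN and KRAB domains that binds the histone methyltransferase NSD1, had 67%, 56% and 56% in high OC, against 31.5%, 31.5% and 40.5% in low OC. ZBTB18, a repressor in developing neurons, lay at the low end with 13%, 11% and 15% in high OC, against 3.5%, 0% and 0% in low OC. ZNF217, an oncogene product that recruits corepressors, had 14%, 11% and 17% in high OC, against 0% in each low OC sample, at 6 to 9 reads. Only ZBTB46, a factor of dendritic cells, had both lower, with 80%, 73.5% and 79.5% in high OC, against 90%, 100% and 94.5% in low OC.

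**Figure D3:**
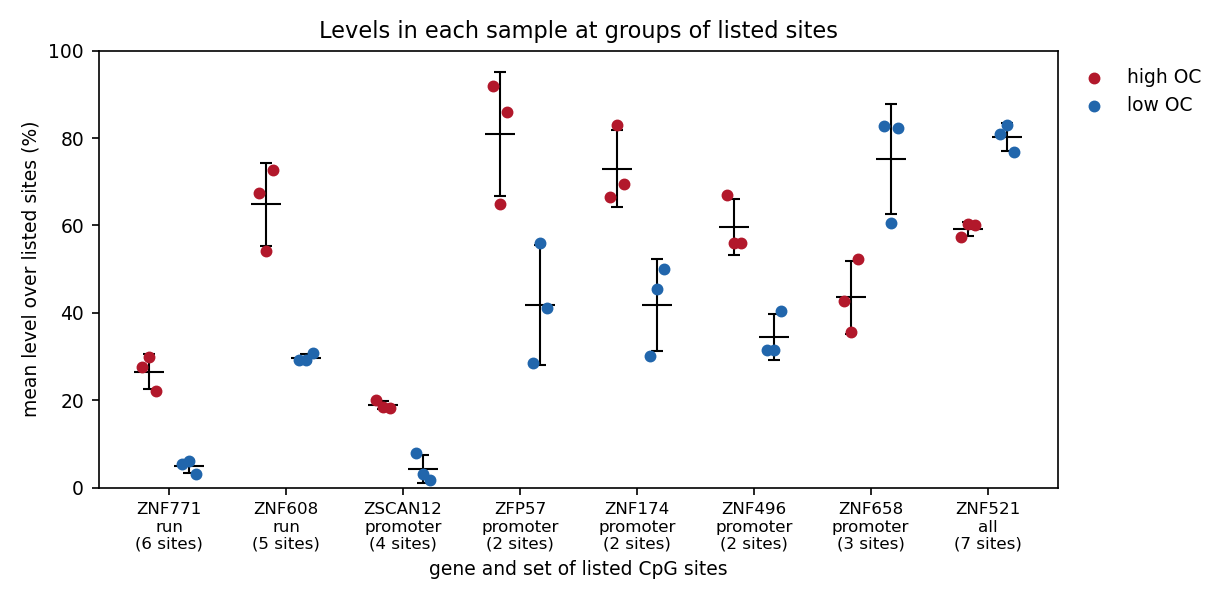
Mean levels over listed CpG sites (%) are shown for each high OC sample (red) and low OC sample (blue) in 8 sets of sites, with the mean and SD of each group of 3 in black. The groups are apart in each set, as the selection of sites implies; the high OC samples are widest apart for ZFP57, at 65% to 92%, and close together for ZSCAN12.

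Runs of at least 5 neighbouring listed sites occurred in ZNF771 and ZNF608, and both runs were higher. The direction of such runs over all listed sites is not given here. The ZNF771 run held 6 sites within 145 bases, at 4565456 to 4565601 on NW_006728570_1, with 5 in an exon and 1 in an intron. Its high OC samples had 27.7%, 29.8% and 22.2%, against 5.5%, 6% and 3.17% in the low OC samples, at 5 to 20 reads. The group means were 26.6% ± 3.95 in high OC and 4.89% ± 1.51 in low OC (SD, n = 3 each). At 4565943 to 4566218 in the same gene, 3 exon sites were lower, at 6.33% ± 2.65 in high OC and 19.4% ± 2.87 in low OC (SD, n = 3 each), so that both directions occurred within 762 bases. The ZNF608 run held 5 exon sites within 77 bases, at 4991967 to 4992044 on NW_006729456_1. Its high OC samples had 67.4%, 54.2% and 72.8%, against 29.2%, 29.2% and 30.8% in the low OC samples, at 11 to 21 reads. The low OC samples were nearly equal and the high OC samples were spread. A single exon site of ZNF608 outside the run was lower, with 86%, 89% and 69% in high OC, against 100% in each low OC sample.

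Shorter runs of 3 or 4 sites were found in ZSCAN12 (above), ZNF423 and ZNF316. The ZNF423 run, 3 intron sites within 43 bases, was higher at 69.8% ± 5.39 in high OC and 38.2% ± 6.85 in low OC (SD, n = 3 each). The ZNF316 run, 3 intron sites within 26 bases, was lower at 2.67% ± 4.62 in high OC and 20.4% ± 4.53 in low OC (SD, n = 3 each). Of the 41 pairs of neighbouring member sites with a gap of at most 100 bases, 36 shared their direction (87.8%, beside 89.5% of such pairs over all listed sites). In 3 of the 41, 1 each in ZNF217, ZNF185 and ZSCAN10, levels and read counts were identical in all 6 samples, so that the same reads may lie behind both sites. Equal read counts with different levels occurred within runs as well. All sites of the ZNF316 run had 12, 8 and 13 reads in high OC and 13, 9 and 11 in low OC. Those of the ZNF608 run had 21, 17 and 14 reads in high OC. The ZNF771 sites at 4565536, 4565541 and 4565561 also had equal read counts. Sites of a run may thus share reads, which was not tested.

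ZNF423 and ZNF536 had the most listed sites and both directions. ZNF423, a transcription factor of neural and fat cell precursors, had 20 sites over 265030 bases of NW_006725465_1, 14 higher and 6 lower, with 19 in introns. The higher sites averaged 80.6%, 80.9% and 79.4% in high OC, against 55.4%, 53.5% and 55.9% in low OC. The lower sites averaged 47%, 43.8% and 47.5% in high OC, against 65.5%, 71.5% and 73% in low OC. By position, the first 9 sites were all higher, and both directions followed beyond them. The site at 23439859, picked after its values were seen, had 33%, 38% and 42% in high OC, against 0% in each low OC sample. It had 16 to 24 reads, with an even count in every sample. ZNF536, a repressor of neuronal differentiation, had 16 sites over 395055 bases of NW_006724904_1. Its 9 higher sites averaged 67.3%, 62.8% and 57.2% in high OC, against 36.9%, 36.6% and 41.6% in low OC. Its 7 lower sites averaged 58.7%, 62.1% and 61.9% in high OC, against 80.4%, 78.1% and 78.1% in low OC. The first 5 sites of ZNF536 were also all higher, with both directions beyond them.

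ZNF521 was the only member with at least 6 listed sites that had a single direction, with all 7 lower. It is a close relative of ZNF423 and acts in blood and neural progenitors. The sites covered 88538 bases of NW_006734789_1, and 5 of them were exon sites within 2532 bases. Over all 7, the high OC samples had 57.3%, 60.3% and 60%, against 80.9%, 83% and 76.7% in the low OC samples. The exon sites averaged 76.6% ± 1.91 in high OC and 92.9% ± 1.67 in low OC, and the 2 intron sites 15.7% ± 7.52 in high OC and 48.5% ± 8.05 in low OC (SD, n = 3 each). Coverage ran from 5 to 40 reads, and exon and intron sites shared the direction at different levels.

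**Figure D4:**
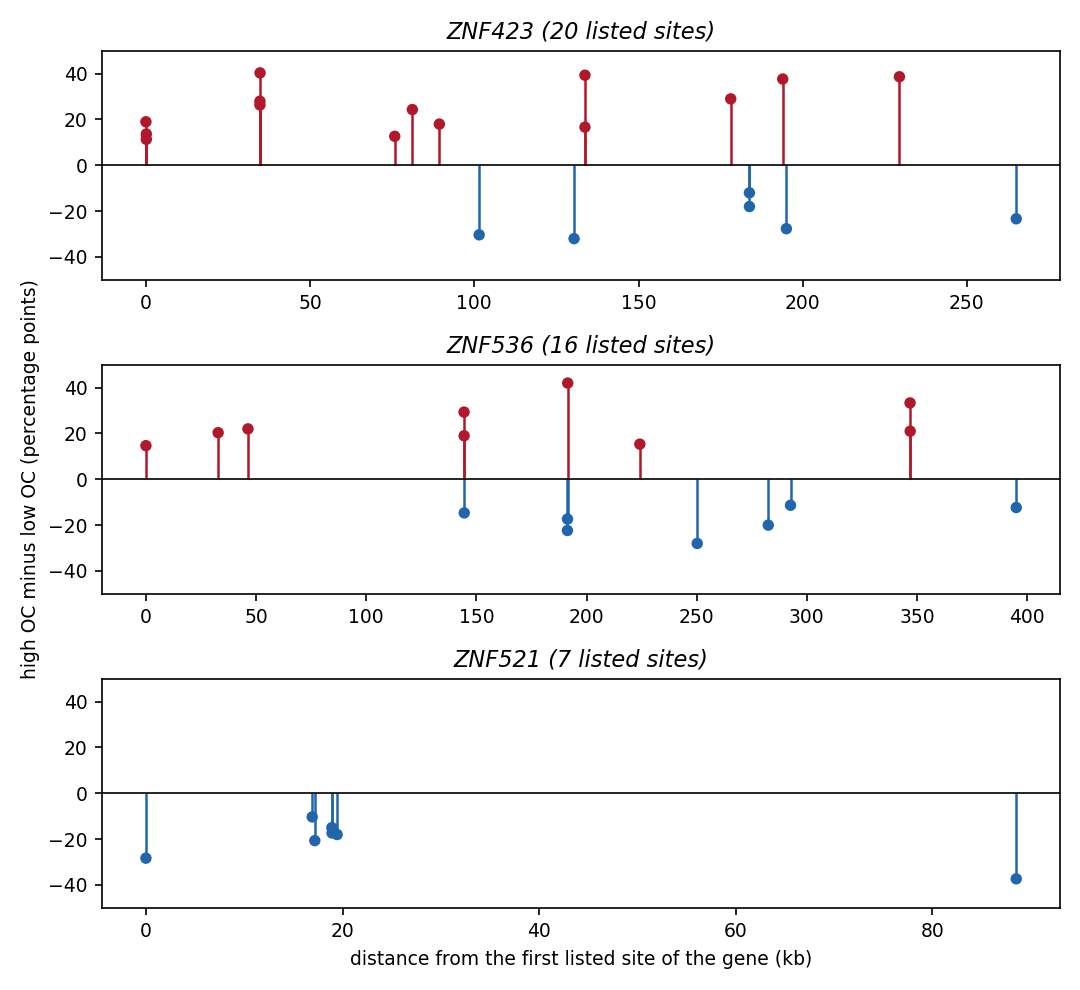
The difference in mean level, high OC minus low OC (percentage points), is drawn for each listed CpG site of ZNF423, ZNF536 and ZNF521 against its distance from the first listed site of the gene (kb), red where higher and blue where lower. The first 9 sites of ZNF423 are higher, ZNF536 has 9 higher and 7 lower sites, and the 7 sites of ZNF521 are all lower.

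The other members with at least 6 sites had both directions. ZNF469, needed for normal collagen in the cornea, had 8 exon sites, 4 higher at 76.8% ± 5.22 in high OC and 55.3% ± 2.54 in low OC, and 4 lower at 38.5% ± 2.41 in high OC and 65.3% ± 1.39 in low OC (SD, n = 3 each). ZBTB46 had 4 higher intron sites, at 86.8% ± 5.06 in high OC and 64.3% ± 4.38 in low OC, and 4 lower sites, at 59.4% ± 7.01 in high OC and 86.3% ± 2.14 in low OC (SD, n = 3 each). ZNF831 had 2 higher sites and 6 lower ones, the lower ones at 56.4% ± 4.07 in high OC and 74.7% ± 3.86 in low OC (SD, n = 3 each). ZNF407 had 7 intron sites, 3 higher at 98.1% ± 2.01 in high OC and 77.7% ± 5.81 in low OC, and 4 lower at 65.1% ± 1.88 in high OC and 87.3% ± 4.30 in low OC (SD, n = 3 each). The ZNF217 gene had 4 higher sites, 2 of them in the promoter, and 3 lower sites at 21% ± 5.57 in high OC and 51.4% ± 6.59 in low OC (SD, n = 3 each). ZSCAN10, a factor of pluripotent cells in mouse, had 4 higher sites at 95% ± 2.46 in high OC and 78.8% ± 3.96 in low OC, and 2 lower sites at 71.3% ± 3.40 in high OC and 88.2% ± 5.75 in low OC (SD, n = 3 each). Averages over all sites of such genes differed less between the groups than averages by direction, since opposite differences cancel.

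**Figure D5:**
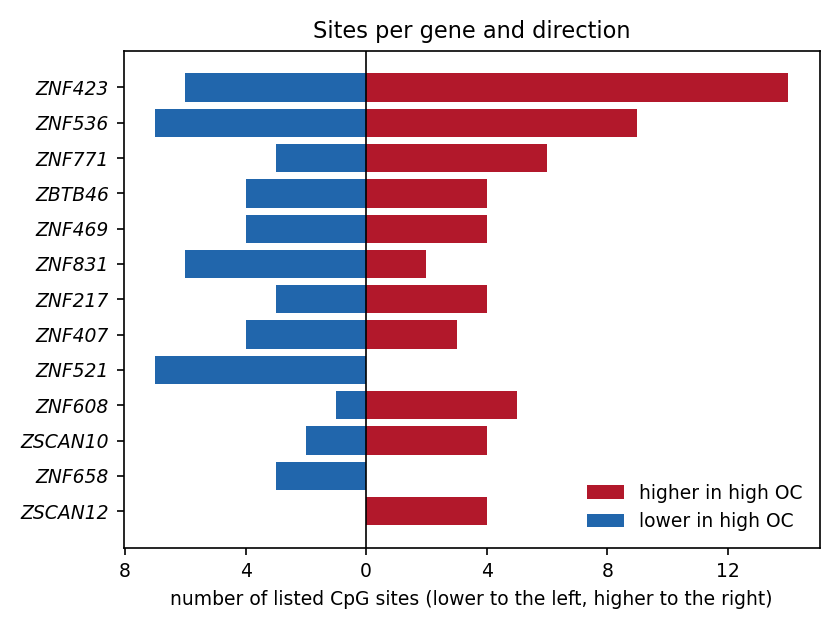
Bars give the number of listed CpG sites per gene, higher in high OC skin to the right (red) and lower to the left (blue), for the 11 members with at least 6 sites and for ZNF658 and ZSCAN12, with at least 3 promoter sites. ZNF521 and ZNF658 have only lower sites and ZSCAN12 only higher ones.

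Among single sites covered by 10 or more reads in every sample, the largest upward difference was in an intron of ZBTB16, which encodes the repressor PLZF. The site, at 7363139 on NW_006725754_1, had 100% in each high OC sample, against 43%, 70% and 0% in the low OC samples. The low OC samples were far apart, and the 0% was 0 of 26 reads, with an upper 95% Wilson limit of 12.9%. Whether the samples differ in DNA sequence at this site was not tested. The ZFP57 promoter site at 1773129 came next, with 92%, 68% and 89% in high OC, against 7%, 52% and 38% in low OC. Sites in ZNF608, ZNF423, ZNF536, ZNF395, ZNF19 and ZNF579 followed, with differences of 44 to 27 points. The ZNF19 intron site, at 11449430 on NW_006735122_1, had 69%, 67% and 60% in high OC, against 42%, 27% and 35% in low OC, with close values within each group. All its coverages were even numbers, as at 24 of the 238 member sites (10.1%) and at 11.4% of all listed sites. Of the 16 single sites ranked in either direction, 3 had only even coverages.

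The largest downward difference at such depth was in an exon of ZNF469, at 1300393 on NW_006725810_1. The high OC samples had 15%, 11% and 0%, against 44%, 50% and 35% in the low OC samples, at 24 to 38 reads. As at all 238 member sites, the groups did not overlap here. ZNF423, ZBTB46, ZBTB7C, ZNF521, ZNF217, ZNF335 (a subunit of a histone methyltransferase complex) and ZNF831 followed. In the ZBTB7C intron, at 3030006 on NW_006734345_1, the high OC samples had 18%, 23% and 18%, against 33%, 58% and 60% in the low OC samples. In the ZNF335 exon, at 15027804 on NW_006728129_1, they had 25%, 39% and 44% in high OC, against 50%, 69% and 62% in low OC. The authors' deposited table gave unadjusted p-values from 0.003606 for ZNF19 to 0.04339 for ZNF536 at these 16 sites. At all 16, the 95% Wilson interval of some high OC sample overlapped that of some low OC sample.

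ZNF750, ZBTB38 and ZNF185 were picked after their values were seen, for their known roles. ZNF750, a factor of epidermal differentiation, had 2 lower sites, with 66.5%, 62.5% and 55.5% in high OC, against 78.5%, 94.5% and 80% in low OC; both sites also lay in introns of TBCD. ZBTB38, which binds methylated DNA, had 2 higher intron sites, with 50%, 26% and 37% in high OC, against 0%, 8.5% and 16.5% in low OC. ZNF185, a LIM domain protein of the actin skeleton, had 2 lower sites with identical values, 0%, 0% and 9% in high OC, against 20%, 20% and 17% in low OC, at 5 to 11 reads.

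Outside CpG, zinc finger protein genes were listed at 8 of 1742 CHG sites, 4 higher and 4 lower, and at 11 of 3216 CHH sites, 4 higher and 7 lower (H is A, C or T). Over the whole lists 48.8% of CHG and 50.2% of CHH sites were higher. Of the genes, 3 of 8 at CHG sites (ZNF395, ZNF598 and ZNF316) and 8 of 11 at CHH sites (ZNF771, ZNF217, ZNF777, ZNF524, ZNF516, ZNF148, ZBTB7C and ZBTB46) also had a listed CpG site. In most, 1 group stood at 0% and the other at a few methylated reads per sample. Higher levels were found in 3 genes. The ZNF771 CHH site at 4565425 had 90%, 92% and 76% in high OC, against 58%, 67% and 55% in low OC. The ZBTB46 CHH site at 420615 had 75%, 80% and 83% in high OC, against 100% in each low OC sample, at 5 to 8 reads. The ZNF462 CHG site at 16620680, in a gene with no listed CpG site, had 56%, 41% and 35% in high OC, against 100% in each low OC sample, at 14 to 29 reads. Whether the DNA sequence differs between samples, or from the reference, at these positions was not tested. The other 16 non-CpG sites of these genes stayed at or below 27% in every sample.

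Where such a site lay within 100 bases of a listed CpG site, both had the same direction. This was so for 2 of 2 CHG sites, in ZNF598, a ubiquitin ligase for collided ribosomes, and in ZNF316, and for 4 of 4 CHH sites, in ZNF771, ZNF217, ZNF524 and ZBTB7C. Over all listed sites it was so for 76.3% of 388 CHG and 75.4% of 735 CHH sites. In the ZNF217 promoter, the CHH site at 8675098 and the CpG site at 8675060 had the same values, with 1 methylated read in each high OC sample, of 7, 9 and 6 reads, against 0 of 7, 7 and 9 reads in the low OC samples. The CpG site at 8675052 was identical as well. Whether these positions rest on the same read in a sample was not tested.

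Of the 18 scaffolds with at least 2 members, 15 had member sites in both directions, among them all 8 with at least 4 members. On the other 3 all member sites were higher: 6 sites of ZNF524, ZNF579 and ZNF628 on NW_006726976_1, 6 sites of ZFP57 and ZSCAN12 on NW_006726621_1, and 3 sites of ZBTB18 and ZNF362 on NW_006727242_1. Some of these were close neighbours, with 4 ZSCAN12 sites within 55 bases and 2 ZFP57 sites 2 bases apart. The direction of the other listed sites on these 3 scaffolds is not given here. Scaffold NW_006726176_1 held 8 members, ZBTB45, ZNF416, ZNF470, ZNF551, ZNF581, ZNF606, ZNF787 and ZSCAN18, with 6 higher and 4 lower sites. NW_006727020_1 held 6, among them ZNF174, ZNF598 and ZSCAN10, with 9 higher and 4 lower sites. NW_006728129_1 held 6, among them ZBTB46, ZNF217 and ZNF831, with 12 higher and 16 lower sites. Of the other listed sites, 62.0% were higher on NW_006726176_1, 50.7% on NW_006727020_1 and 50.1% on NW_006728129_1.

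Partners and relatives of these proteins were also split. As background, 31.7% of the other named protein-coding symbols in RefSeq's gene list had a listed CpG site. Shares of listed genes also depend on coverage, and those below were not tested. Of 36 corepressor partners of KRAB and BTB proteins 19 had a listed site, 7 leaning higher, 9 lower and 3 equal. Among them the histone deacetylase HDAC4 had 20 higher and 10 lower sites, HDAC5 had 3 and 3, and BCOR, a corepressor of the BTB protein BCL6, had 7 higher and 0 lower. Of 128 other C2H2 factors 65 were listed, 30 leaning higher, 27 lower and 8 equal, with PRDM16, a factor of brown fat, at 20 higher and 48 lower sites. Of 57 genes of other zinc-binding families 22 were listed, 9 leaning each way and 4 equal. Of 32 markers of 6 skin cell types 6 were listed, 3 leaning each way, with 15 higher and 26 lower sites. The keratinocyte markers differed among themselves: PKP3 had 1 higher and 22 lower sites, EVPL 10 higher and 1 lower, and PPL 2 higher and 0 lower. The fibroblast and adipocyte markers had 0 listed sites, and methylation at listed sites cannot check the tissue label. Whether the mix of cells moved with the values of zinc finger protein genes was not tested.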

How the data were processed

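DNA of 6 fin whale skin samples was cut with MspI, treated with bisulfite and sequenced (Illumina HiSeq), as the labels' protocols state. The submitters' processing notes name Bismark. Not given in the sources used here: its version, the genome build and annotation, read filters, the reach of a promoter and the treatment of multiply mapped reads. The authors deposited, per cytosine and sample, the methylation level as a fraction with 2 decimals and the coverage as a count of reads. The deposited lists add a difference of group means, a p-value and gene names by promoter, exon and intron. Methylated reads were recovered as level times coverage; an equal-variance two-sample test on them came within 1% of the deposited p-value at 99.7% of the 32682 listed CpG sites, so those p-values are unadjusted. Of the deposited tables, the lists of selected CpG, CHG and CHH sites and a stretch of unselected CpG sites were used; the others were not used here.

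The members and gene lists were chosen with earlier results of these data known. The authors selected the sites on these 6 samples, so no test was run on them. Groups are given as mean ± SD over samples, shares with exact 95% binomial intervals that treat sites as independent, and single levels with 95% Wilson intervals. Intervals and floors (3 counts for a count of 0) cover counting error only, since no molecular identifiers are given. Replicates are numbered in accession order. Positions are 1-based, taken as the end of the deposited interval. The rule for named genes took those with at least 6 listed CpG sites, at least 3 promoter sites, a run of at least 5 sites with gaps of at most 100 bases, 1 of the 8 largest differences in either direction (1 site per gene, at least 10 reads in each sample) or a CHG or CHH site, and up to 4 genes per list, of which 1 is not reported here. Symbols were looked up in RefSeq's table for assembly mBalPhy2.hap1.1, for names only, since the scaffold names differ. Alternatives changed coverage, difference, spacing of sites, membership, averaging and samples. The counting steps were tested on simulated data. Python 3.11.15, numpy 2.4.6, scipy 1.17.1, pandas 2.3.3 and matplotlib 3.10.9 were used.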

Additional observations from a re-analysis of the deposited data

How the results depend on the processing

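Depth limits the single-site values: 84 of the 238 sites reached 10 reads in every sample and 10 reached 20, and at 93 the difference was worth at most 2 reads at the site's mean coverage. No paired analysis was possible because the labels give the groups no shared replicate numbers. The shares of higher sites (56.3%) and of promoter sites (19.3%), the share of promoter sites that were higher (71.7%), the exon share (45.8%) and the gene counts (53 higher, 37 lower) stayed within their limits with 1 site per 1 kb window, a wider symbol pattern, sites of members only and no sites with even coverages; the alternatives for the shares of exon sites and of higher promoter sites were added after seeing the data. For differences of at least 0.33 (30 sites), 66.7% were higher, promoters held 13.3%, exons 33.3%, and 12 genes leaned higher and 7 lower. For at least 0.5 (5 sites), promoters held 40%, exons 0%, 50% of the promoter sites were higher, and 3 genes leaned higher and 2 lower. With at least 10 reads, 85.7% of promoter sites were higher, exons held 54.8%, and 22 genes leaned higher and 16 lower. With at least 20 reads the shares reversed, to 40% of sites and 0% of promoter sites (1 site) higher, promoters held 10%, and 4 genes leaned higher and 6 lower. These settings leave few sites. Without 1 sample in turn, 119 to 138 sites met the authors' criteria again. The higher share was then 50% to 61.8%, the promoter share 15.3% to 19.0%, the higher share of promoter sites 60% to 87.0% and the exon share 44.9% to 50.4%, and 35 to 41 genes leaned higher and 20 to 29 lower. Differences of the 13 genes with at least 6 sites or 3 promoter sites, by direction, moved by more than 1 SD in 10 of 205 alternatives. Their sign was kept in all 205. The sites had been split by direction and the groups overlapped at none of them. Leaving out samples or sites could therefore not change the sign, and its constancy is no check of these values.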
